A study of Homo sapiens with 6 samples.

Results

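The genes described here are 42 human genes of the apoptosis machinery: the BCL2 family, the death receptors with their adaptors, the caspases, and the mitochondrial proteins and inhibitors that act on caspases. They were chosen by gene symbol, as the probes whose platform annotation names one of these genes. A named probe was found for 41 of the 42 genes, 81 probes in all, and 34 genes had a probe past the filter on dim signals, of 11732 genes that passed it on the whole array. RIPK1, the kinase recruited to TNF receptors, had no named probe and was not analysed here. The samples are RNA of cells labelled as SKOV3, a human ovarian carcinoma line, each on its own single-colour Illumina bead array. There were 3 arrays of the subline ip1, labelled as parental, and 3 of the subline OM3, labelled as metastatic, with no treatment given for either. The design sets the expression profile of OM3 against that of ip1, its parental line per the series description. The labels do not say how OM3 was derived or whether the arrays of a group came from separate cultures, and the extraction protocol speaks of tissues. The p-values therefore reflect the spread among these 6 arrays alone, which may be technical.

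Apoptosis is controlled at a mitochondrial and at a cell surface checkpoint. At mitochondria, anti-apoptotic proteins such as BCL-XL hold the pore formers BAX and BAK in check until BH3-only proteins displace them; the pore then releases cytochrome c, which assembles with APAF1 and caspase-9 into the apoptosome. At the surface, FAS and the TRAIL receptors recruit FADD and caspase-8, and the catalytically inactive homologue CFLAR (FLIP) limits that step. IAP proteins restrain the caspases that both routes activate, and SMAC/DIABLO and HTRA2 relieve the restraint.

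Values are log2 of the normalized signal, so a difference of 1 is 2-fold, and a level may be compared between arrays but not between probes. A gene was called higher or lower in OM3 at an adjusted p under 0.05 in limma's moderated test, fitted and adjusted over all 11732 genes. Arrays of the same group correlated at 0.984 to 0.988 and arrays of different groups at 0.797 to 0.813 over these genes, and 38.3% to 41.9% of an array's probes lay above background. The arrays labelled OM3 differed from those labelled ip1 in markers of the line itself. Of 9 ovarian carcinoma and epithelial markers, 7 were lower and 1 higher in OM3. The higher one was EPCAM, with a log2 fold change of 0.97 (adjusted p = 0.000319), and MUC16 was not called. KRT19 and PAX8 were below background on the 3 OM3 arrays. CDKN2A, which SKOV3 is known to lack, did not exceed background on any ip1 array, and its OM3 signal was at least 11.2-fold higher (adjusted p = 1.06e-06). Fibroblast markers were higher for 6 of the 6 tested, with 3 more (COL1A1, PDGFRB and FAP) under the filter. Their summed signal ranged from 216 to 240 on ip1 arrays and from 7643 to 8693 on OM3 arrays. COL1A2, COL3A1, DCN, LUM and THY1 were below background on the 3 ip1 arrays. These genes passed the filter through OM3 arrays alone, which left them little room to be other than higher, and the sum uses the same probes. Of 3 mesothelial markers, MSLN was at least 29.2-fold lower in OM3, UPK3B had a log2 fold change of -1.90 and CALB2 was not called. Of 5 leukocyte markers, PTPRC and CD3E did not pass the filter, the lysosomal protein gene CD68, above background on the 6 arrays, was 4.01-fold lower, and CD14 and MS4A1 were not called. Of 3 endothelial markers, VWF and CDH5 did not pass the filter and PECAM1, above background on the 6 arrays, was not called. Of 3 adipocyte markers, ADIPOQ did not pass the filter and LEP was not called. PLIN1 was called lower, but it was below background on the 3 OM3 arrays and only at least 1.002-fold lower by the bound. Whether the OM3 cells descend from the ip1 cells was not tested, so "rose" and "fell" below mean only higher or lower on the arrays labelled OM3 than on those labelled ip1. The part of these marker differences in the values below was not tested. In RNA taken from many cells at once, fewer cells of a type and less RNA per cell cannot be told apart.

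Of the 34 genes tested, 18 were called: 7 higher in OM3 (BCL2L12, BCL2L13, FAS, CASP9, APAF1, CYCS and HTRA2) and 11 lower (BCL2L1, BCL2L2, BAX, BAK1, BIK, PMAIP1, TNFRSF10A, TNFRSF21, CFLAR, CASP2 and BIRC2). That share, 52.9%, stands beside 57.1% of all genes tested; over all genes 31.2% were called higher and 25.9% lower. Called differences of at least 2-fold were found for 11 genes (32.4% of those tested, against 26.6% of all genes), 4 higher and 7 lower, where 12.8% of all genes were higher and 13.8% lower by that much. The OM3 and ip1 values did not overlap for 23 of the 34 genes, against 64.2% of all genes. The median log2 fold change of the 34 was -0.17 (-0.17 also with bounded genes at their bound) and that of all genes 0.085. Of the 34, 4 passed the filter through the arrays of a single group: BIK, TNFRSF10A and CASP10 through ip1 and FAS through OM3. A probe that was above background in that group alone is given with a bound, "at least N-fold". Bounds, here and above, hold only on the scale of the background correction used here, and are no minimum under another background step. The adjusted p beside a bound, here and above, belongs to the fitted difference, and the bound itself was not tested. Passing through a single group left a gene little room to differ in the other direction.

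**Figure D1:**
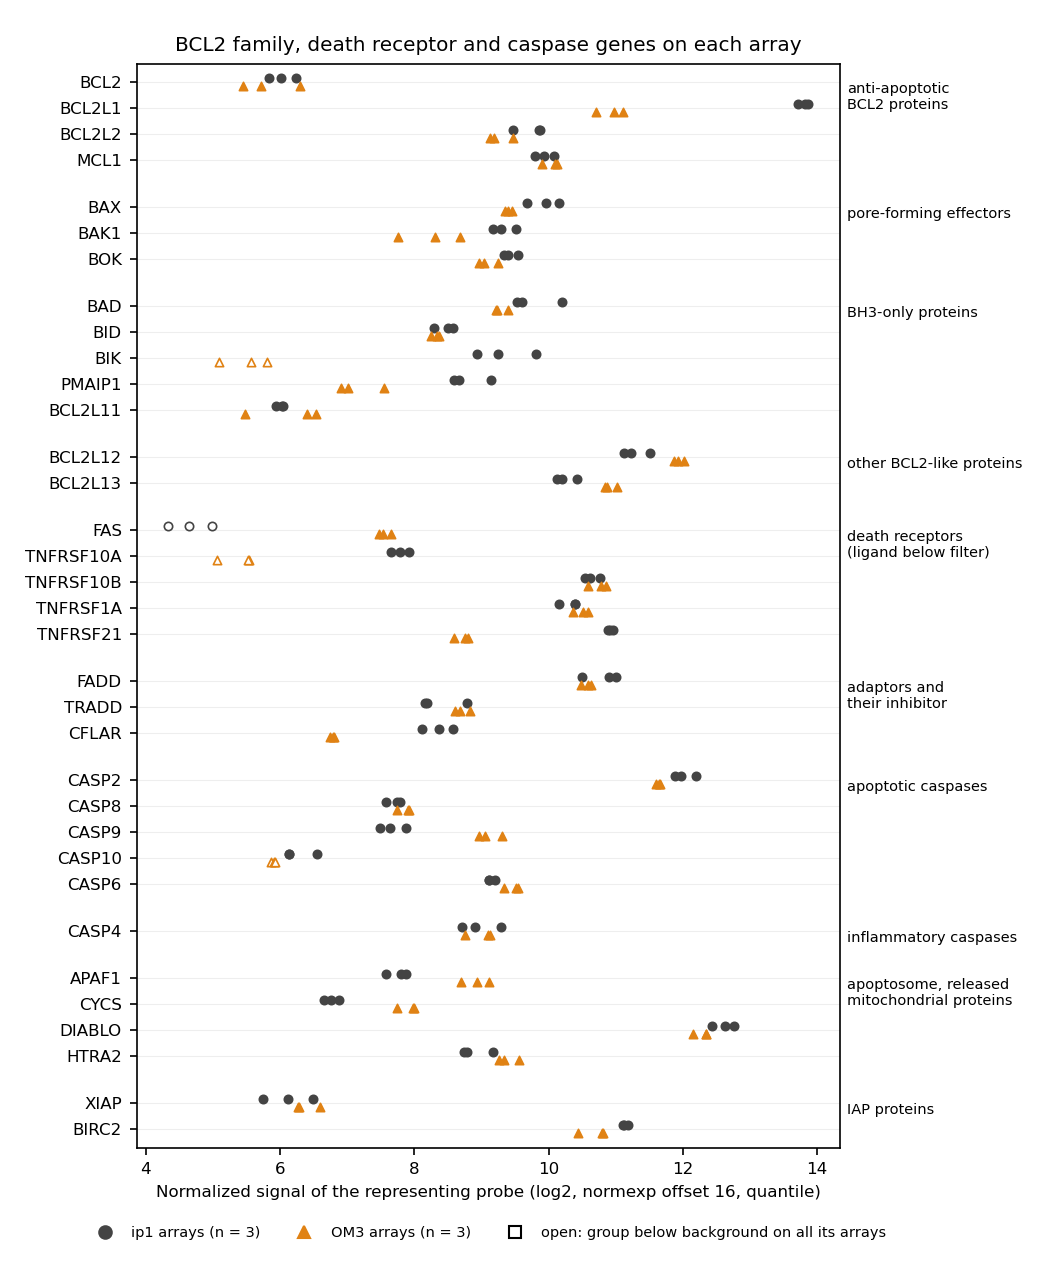
Normalized log2 signal (horizontal axis) of each tested gene (rows, grouped by role) on the 3 ip1 arrays (circles) and the 3 OM3 arrays (triangles); open symbols mark a group that was below background on all its arrays. BCL2L1 at 13.72 to 13.86 on ip1 arrays and 10.70 to 11.11 on OM3 arrays, and FAS, open on ip1 arrays, show wide gaps in opposite directions.

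Among the anti-apoptotic BCL2 proteins, the dominant change was in BCL2L1, which encodes BCL-XL. Its probe read 13.86, 13.72 and 13.82 on the ip1 arrays and 10.98, 11.11 and 10.70 on the OM3 arrays. All OM3 arrays were therefore far below all ip1 arrays, although the signal stayed well above background. The log2 fold change was -2.87 ± 0.15 (SE, n = 3 + 3, adjusted p = 6.55e-07), a 7.30-fold lower signal that lay at the 3.53 percentile of all genes tested. The other BCL2L1 probe gave -3.08 ± 0.14. MCL1, the short-lived relative that binds a different set of BH3-only proteins, was at 9.93 ± 0.14 (SD) in ip1 and 10.04 ± 0.12 in OM3 and was not called (0.11 ± 0.14, adjusted p = 0.536). BCL2L2, which encodes BCL-W, fell by a smaller amount, from 9.73 ± 0.23 to 9.26 ± 0.18 (-0.47 ± 0.16, adjusted p = 0.0362). That call was lost without ip1 array 2 or 3 and without OM3 array 1 or 3 (adjusted p from 0.100 to 0.112). BCL2 itself was dim: its kept probe was above background on 2 ip1 arrays and 1 OM3 array, at 6.03 ± 0.20 and 5.82 ± 0.43, and was not called (adjusted p = 0.454). BCL2A1, an NF-kappaB target, stayed under the filter, above background on 2 ip1 arrays and no OM3 array.

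The pore formers were lower in OM3 as far as they were called. BAK1, which encodes the effector that resides in the outer mitochondrial membrane, read 9.17, 9.52 and 9.29 on ip1 arrays and 8.68, 8.30 and 7.76 on OM3 arrays. The OM3 values spread over almost a log2 unit but did not reach the ip1 values. The log2 fold change was -1.08 ± 0.23 (adjusted p = 0.00348). BAX, the effector that moves to mitochondria from the cytosol, was lower by its brightest probe, with a log2 fold change of -0.52 ± 0.15 (adjusted p = 0.0168), from 9.93 ± 0.24 to 9.40 ± 0.05. The call of BAX was lost without ip1 array 3 (adjusted p = 0.0638) and without OM3 array 3 (0.0512), and its other probes went another way, as given below. BOK, a close relative of both, was at 9.43 ± 0.11 and 9.08 ± 0.15 and narrowly missed the threshold (-0.35 ± 0.14, adjusted p = 0.0578; 0.0475 without OM3 array 3).

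Of the 8 BH3-only genes, 5 were tested, 2 fell and none rose; the shares of all genes are those given above. BIK, which encodes a BH3-only protein of the endoplasmic reticulum membrane, read 8.93, 9.81 and 9.25 on ip1 arrays and 5.80, 5.57 and 5.09 on OM3 arrays. In the deposited intensities this was 588, 877 and 630 on ip1 arrays and 144, 134 and 119 on OM3 arrays, where the background limit of an array was 146.8 to 152.5. BIK was thus below background on the 3 OM3 arrays and at least 10.1-fold lower there (adjusted p = 3.60e-06). PMAIP1, which encodes the MCL1-binding protein NOXA, read 9.14, 8.66 and 8.60 in ip1 and 6.91, 7.01 and 7.55 in OM3. It stayed above background on the 6 arrays and fell by 1.64 on the log2 scale (± 0.21, adjusted p = 0.000227), and its other probe gave -1.07 ± 0.23. BAD, the BH3-only protein inactivated by AKT phosphorylation, was at 9.78 ± 0.36 and 9.28 ± 0.10, a difference of -0.50 ± 0.19 that just missed the threshold (adjusted p = 0.0502). It was called without ip1 array 1 (adjusted p = 0.04875) or without ip1 array 3 (0.0342). Without ip1 array 2, the highest at 10.19, the difference shrank to -0.29 (adjusted p = 0.124), and with the mean of the kept BAD probes it was -0.045 (0.814). BID, which caspase-8 cleaves to link the surface route to mitochondria, was at 8.45 ± 0.15 and 8.31 ± 0.06 (adjusted p = 0.403). BCL2L11, which encodes BIM, was near background, at 6.01 ± 0.05 in ip1 and 6.14 ± 0.58 in OM3, and was above it on 2 arrays of each group (adjusted p = 0.687, and 0.0331 without OM3 array 1). BMF and HRK were below background on every array, and BBC3 (PUMA) was above it on 2 OM3 arrays only, which is too few for the filter.

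BCL2L12 and BCL2L13, members of the family by sequence with less settled roles, both rose by similar amounts. BCL2L12 went from 11.29 ± 0.20 to 11.94 ± 0.07 (0.65 ± 0.14, adjusted p = 0.00463), with no overlap between groups. BCL2L13, a protein of the outer mitochondrial membrane known as a mitophagy receptor, went from 10.24 ± 0.15 to 10.91 ± 0.09 (0.66 ± 0.14, adjusted p = 0.00306).

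**Figure D2:**
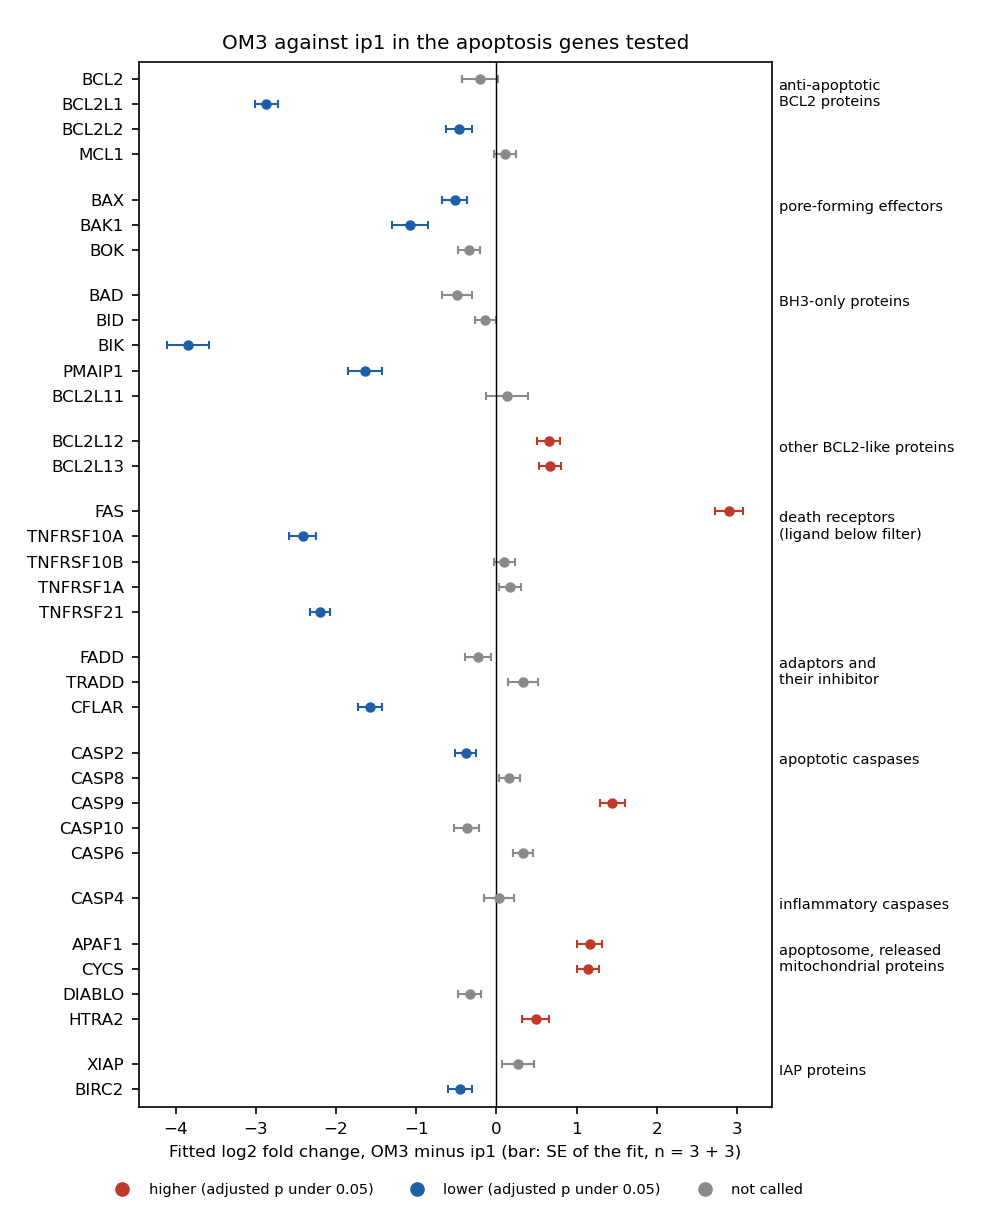
Fitted log2 fold change, OM3 minus ip1, of each tested gene (points) with its SE (bars, n = 3 + 3), coloured by call. The 7 higher genes run from HTRA2 at 0.49 to FAS at 2.90 and the 11 lower genes from CASP2 at -0.39 to BIK at -3.85; the fitted values of FAS, BIK, TNFRSF10A and CASP10 rest on background signal in a group.

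The death receptors split. FAS, the receptor of FAS ligand, read 4.64, 4.34 and 4.98 on ip1 arrays and 7.47, 7.54 and 7.66 on OM3 arrays. The deposited intensities were 111, 98.2 and 110 in ip1, under the background limits of 138.5 to 148.8, and 267, 267 and 291 in OM3. With no ip1 array above background, FAS was higher by at least 3.03-fold in OM3 (adjusted p = 1.98e-06), though dim there as well. TNFRSF10A, which encodes the TRAIL receptor DR4, went the other way, from 7.78, 7.91 and 7.65 to 5.53, 5.06 and 5.52. Below background on the 3 OM3 arrays, it was at least 3.46-fold lower (adjusted p = 4.41e-06). TNFRSF10B, which encodes the other signalling TRAIL receptor DR5, was at 10.64 ± 0.11 in ip1 and 10.74 ± 0.14 in OM3 and was not called (0.10 ± 0.14, adjusted p = 0.557). TNFRSF21, which encodes DR6, read 10.96, 10.89 and 10.91 in ip1 and 8.81, 8.76 and 8.59 in OM3. The arrays of each group lay close together, and DR6 fell by 2.20 on the log2 scale (± 0.13, adjusted p = 1.36e-06), which is 4.60-fold. TNFRSF1A, the main TNF receptor of non-immune cells, was at 10.32 ± 0.14 and 10.49 ± 0.11 (adjusted p = 0.317). The decoy receptor gene TNFRSF10D and the TRAIL gene TNFSF10 did not pass the filter, above background on 2 arrays and 1 array at most.

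Below the receptors, the inhibitor moved and the adaptors did not pass the test. CFLAR read 8.11, 8.37 and 8.58 on ip1 arrays and 6.79, 6.80 and 6.75 on OM3 arrays, where the values were almost the same. CFLAR fell by 1.57 on the log2 scale (± 0.15, adjusted p = 3.23e-05), a 2.98-fold lower signal. FADD, the adaptor of FAS and the TRAIL receptors, was at 10.80 ± 0.26 and 10.57 ± 0.08 (adjusted p = 0.245, and 0.0447 without ip1 array 1). TRADD, the adaptor of TNF receptor 1, was at 8.38 ± 0.35 and 8.71 ± 0.11 (adjusted p = 0.167, and 0.0170 without ip1 array 2).

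The apoptosome genes APAF1, CYCS and CASP9 were higher in OM3, each by more than 2-fold in the fit reported here. APAF1, the scaffold, read 7.81, 7.58 and 7.88 on ip1 arrays and 8.94, 8.69 and 9.12 on OM3 arrays. CYCS, which encodes cytochrome c, read 6.88, 6.76 and 6.65 in ip1 and 7.99, 7.74 and 7.98 in OM3. CASP9, the initiator caspase that the scaffold activates, read 7.48, 7.64 and 7.87 in ip1 and 9.05, 9.31 and 8.97 in OM3. In each case the lowest OM3 array was above the highest ip1 array, and the 6 arrays were above background. The log2 fold changes were 1.16 ± 0.16 for APAF1 (adjusted p = 0.000273), 1.14 ± 0.14 for CYCS (0.000138) and 1.44 ± 0.16 for CASP9 (7.71e-05). With other processing the log2 fold change went down to 0.85 for APAF1 and 0.68 for CYCS, under 2-fold, and to 1.02 for CASP9. A rise of at least 2-fold was called for 12.8% of all genes.

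Because these 3 genes moved together, the 250 bases before their annotated starts are shown, from RefSeq on GRCh38.p14 and written 5′ to 3′ along the gene. The APAF1 window is chr12:98645040-98645289 on the plus strand, the CASP9 window chr1:15524791-15525040 on the minus strand (the more upstream of 2 annotated starts), and the CYCS window chr7:25125261-25125510 on the minus strand. Capitals mark CCAAT, a box bound by NF-Y, on either strand (ATTGG when read from the other strand), and GCATGCGC, a core of the NRF1 motif.
APAF1: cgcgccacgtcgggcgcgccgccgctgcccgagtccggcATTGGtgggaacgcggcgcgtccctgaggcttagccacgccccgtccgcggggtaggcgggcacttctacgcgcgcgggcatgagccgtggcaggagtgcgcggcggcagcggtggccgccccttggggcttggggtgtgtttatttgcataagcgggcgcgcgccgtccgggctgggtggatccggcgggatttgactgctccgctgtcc
CASP9: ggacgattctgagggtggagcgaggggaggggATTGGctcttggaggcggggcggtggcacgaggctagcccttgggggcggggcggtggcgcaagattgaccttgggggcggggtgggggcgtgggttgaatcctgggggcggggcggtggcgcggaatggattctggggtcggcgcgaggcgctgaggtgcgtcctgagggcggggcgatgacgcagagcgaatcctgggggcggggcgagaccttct
CYCS: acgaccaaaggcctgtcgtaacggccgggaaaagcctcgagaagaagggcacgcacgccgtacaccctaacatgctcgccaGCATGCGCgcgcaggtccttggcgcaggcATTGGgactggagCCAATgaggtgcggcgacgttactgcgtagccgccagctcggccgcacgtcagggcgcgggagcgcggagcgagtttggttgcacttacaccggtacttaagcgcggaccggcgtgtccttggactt
APAF1 and this CASP9 window hold 1 CCAAT each and CYCS holds 2, but the window before the other CASP9 start (chr1:15524216-15524465, not printed) holds none, so CCAAT is not common to all the annotated starts. Of the windows shown, only CYCS holds the NRF1 core, once. The 2 motifs do not overlap in any of them. Of all 35116 promoter windows of this length in the table, 32.0% hold CCAAT and 2.63% the NRF1 core. The CG dinucleotide, the site of DNA methylation, occurs 38 times in the APAF1 window, 25 times in the CASP9 window shown (29 in the other) and 31 times in the CYCS window, against a median of 11 over all windows. At least as many were held by 3.28% of all windows for APAF1, 21.63% for the CASP9 window shown (14.1% for the other) and 10.85% for CYCS. None of the 3 holds TATAAA, which 10.7% of all windows do on either strand. A match of letters is a description, not evidence of binding. The table held a window for 33 of the 42 genes.

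The other caspases moved less. CASP2, the caspase of the PIDDosome, was at 12.02 ± 0.15 in ip1 and 11.63 ± 0.03 in OM3 (-0.39 ± 0.13, adjusted p = 0.0341). That call was lost without ip1 array 3 and without any of the 3 OM3 arrays (adjusted p from 0.0629 to 0.131). CASP8, the initiator caspase of the death receptors, was at 7.70 ± 0.11 and 7.86 ± 0.10 (adjusted p = 0.330) and had a sign that turned with the scaling (-0.021 with cyclic loess). CASP10, its close relative, was dim in ip1 at 6.27 ± 0.25 and below background on the 3 OM3 arrays, at least 1.21-fold lower by the bound, and was not called (adjusted p = 0.0652). CASP6, an executioner caspase, was at 9.14 ± 0.06 and 9.47 ± 0.11 (adjusted p = 0.0529), with no overlap between groups. Of the inflammatory caspases, CASP4, which senses intracellular lipopolysaccharide, was at 8.97 ± 0.29 and 9.00 ± 0.21 (adjusted p = 0.904; -0.14 with cyclic loess), and the 3 probes of CASP1, which activates interleukin-1 beta, were above background on 1 ip1 array at most.

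Of the released mitochondrial proteins, HTRA2, a serine protease that cleaves IAP proteins, was higher in OM3 (8.90 ± 0.24 to 9.39 ± 0.15, 0.49 ± 0.16, adjusted p = 0.0307). Its call was lost without ip1 array 1 or 3 and without OM3 array 1 or 2 (adjusted p from 0.0616 to 0.09945). DIABLO, which encodes the IAP antagonist SMAC, was at 12.61 ± 0.16 and 12.28 ± 0.11 (-0.33 ± 0.14, adjusted p = 0.0718, and 0.0408 without ip1 array 1). Of the IAP genes, BIRC2, which encodes the ubiquitin ligase cIAP1 of TNF receptor complexes, was lower in OM3 at 11.14 ± 0.04 and 10.68 ± 0.21 (-0.46 ± 0.14, adjusted p = 0.0248). The BIRC2 call was lost without ip1 array 2 (adjusted p = 0.05295), ip1 array 3 (0.0738) or OM3 array 2 (0.0762). XIAP, the direct caspase inhibitor, was near background at 6.12 ± 0.37 and 6.38 ± 0.19 (adjusted p = 0.293).

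Probes of the same gene did not always move together. Of the 18 genes with several kept probes, 5 had every kept probe called in the same direction in the fit over all kept probes: BCL2L1, PMAIP1 and BIRC2 lower, and BCL2L12 and CASP9 higher. BAX alone had probes called in opposite directions. Its brightest probe gave -0.52 ± 0.16, another gave 0.73 ± 0.16 (adjusted p over all kept probes = 0.00500) and the third 0.03 ± 0.28. The platform annotation assigns the brightest and the third probe to the same BAX transcript record and the rising probe to another. For BAD, the brightest probe at -0.50 was not called while a dim one at 0.53 ± 0.16 was (adjusted p = 0.0256). BCL2L11 also had a probe that was called although the brightest was not; below background on the 3 OM3 arrays, it was at least 1.11-fold lower (adjusted p = 0.0154). DIABLO (-0.52 ± 0.15), CASP6 (0.48 ± 0.13) and CASP4 (0.65 ± 0.20) had such probes too. For CASP8 no probe was called, but the other kept probes gave -1.38 ± 0.55 and -0.16 ± 0.16 where the brightest gave 0.16 ± 0.14. The other CASP9 probe rose by 0.60 ± 0.15, less than the brightest, and the other BIRC2 probe fell by 0.84 (± 0.13), more than the brightest.

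**Figure D3:**
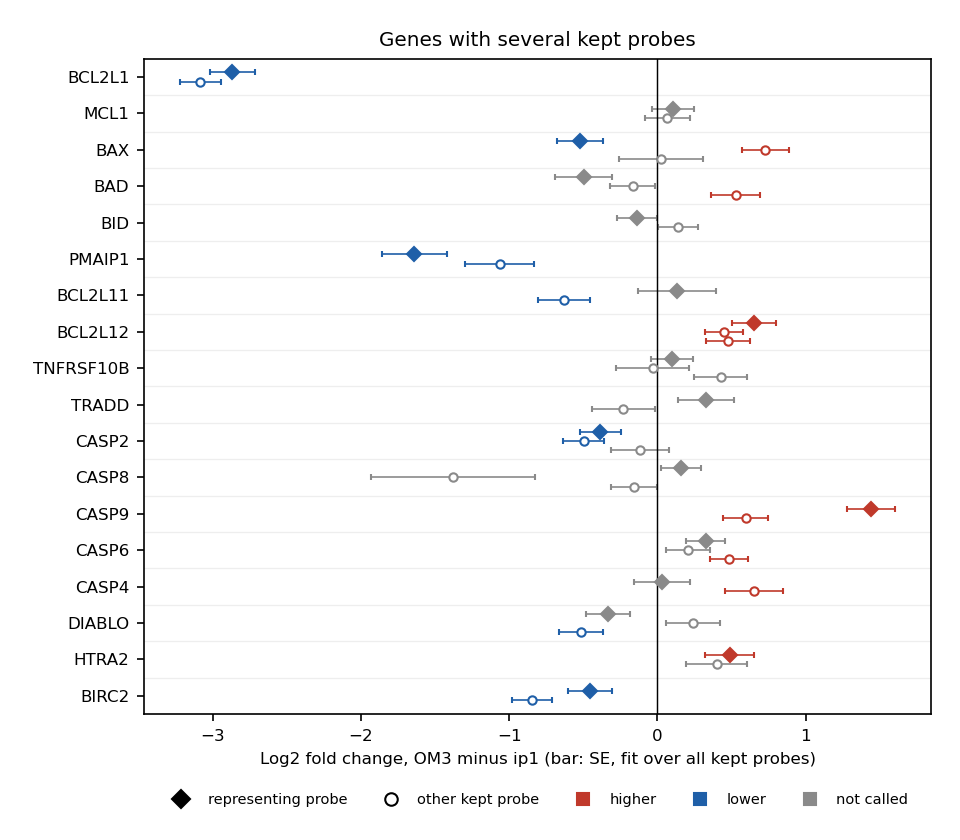
Log2 fold change, OM3 minus ip1, with its SE for every kept probe of the 18 genes that have several (diamonds: the probe with the highest mean; circles: other kept probes), coloured by call in the fit over all kept probes. The probes of BCL2L1 lie at -2.87 and -3.08, whereas those of BAX run from -0.52 to 0.73.

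Some of the genes are direct neighbours among protein-coding genes in the RefSeq table of GRCh38.p14. Where both genes of a pair were tested, they were not called together. The tested pairs were CFLAR with CASP10, CASP10 with CASP8, BCL2L13 with BID, and TNFRSF10B with TNFRSF10C. Other pairs held a gene without a named probe (BIRC3, beside BIRC2) or under the filter, so they could not be called together. Those under the filter were LTA (beside TNF), CASP5 and CASP1 (beside CASP4), and TNFRSF10D. CFLAR, CASP10 and CASP8 follow each other on chromosome 2, where CFLAR fell and the caspase genes were not called. BCL2L13 and BID are adjacent on chromosome 22, where BCL2L13 rose and BID was not called. On chromosome 8 the order is TNFRSF10B, TNFRSF10C, TNFRSF10D, TNFRSF10A, and of these TNFRSF10A was called, TNFRSF10B and TNFRSF10C were not, and TNFRSF10D did not pass the filter. The differences between these neighbours were not tested. The TNFRSF10 receptors resemble each other in sequence, as do CASP1 and CASP4, so cross-hybridization between their probes was not tested.

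The 11 called genes with a change of at least 2-fold kept their direction and call in every alternative that tested them. Their fitted sizes depended on the background step, most of all where a group was dim. Without background correction the log2 fold change was 1.32 for FAS, -2.50 for BIK, -1.28 for TNFRSF10A and 0.75 for CYCS, and in the authors' log2 table it was 1.18, -2.29, -1.15 and 0.68, with CFLAR at -0.99. For FAS, BIK and TNFRSF10A these differences were smaller than the bounds given above. Although above background on every array, BAK1 (-0.90 and -0.84) and APAF1 (0.92 and 0.85) also came under 2-fold in these settings. The smaller changes of BCL2L2, BAX, CASP2, HTRA2 and BIRC2 were each lost under some alternatives, and those of BCL2L12 and BCL2L13 under none of those run. Processing alone was enough for such losses. Median centring removed the calls of BCL2L2 (adjusted p = 0.0777), CASP2 (0.116) and BIRC2 (0.121), and cyclic loess that of HTRA2 (0.124). Without the filter on dim probes BCL2L2, BAX, CASP2, HTRA2 and BIRC2 were all not called. Other genes gained a call under part of the 15 alternatives, mostly of the processing: BOK under 7 (adjusted p down to 0.0135), BAD under 8 (0.0107), CASP6 under 7 (0.0173) and DIABLO under 6 (0.01615).

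**Figure D4:**
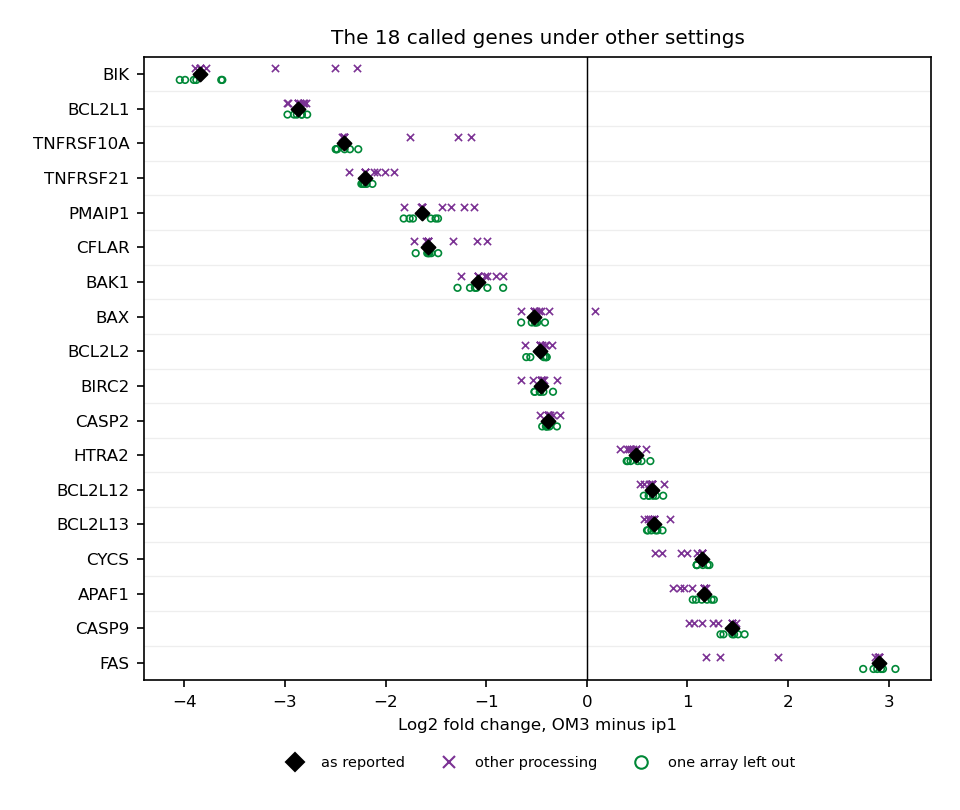
Log2 fold change, OM3 minus ip1, of the 18 called genes as reported (diamonds), under other processing (crosses) and with an array left out (circles). BAX at 0.077 with the mean of its probes is the only cross on the other side of 0, and FAS runs from 1.18 to 3.07.

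Further apoptosis genes outside these families moved in both directions. Of 48 listed, 34 were tested, 8 were higher and 10 lower, which is 52.9% beside the 57.1% of all genes, with a median log2 fold change of 0.00. TNF, the ligand of TNFRSF1A, was below background on the 3 OM3 arrays and at least 10.9-fold lower there (adjusted p = 4.31e-07). PYCARD, the inflammasome adaptor ASC, had no ip1 array above background and was higher in OM3 by at least 5.08-fold (adjusted p = 1.68e-07). Without background correction the log2 fold changes were -2.58 for TNF and 1.73 for PYCARD, smaller differences than these bounds. BNIP3, a hypoxia-induced mitophagy receptor, rose by 1.67 ± 0.16, and AIFM1, a flavoprotein of the mitochondrial intermembrane space, by 1.49 ± 0.16. PEA15, a death effector domain protein that binds FADD, had a log2 fold change of -1.24 ± 0.14, and NOL3, the caspase recruitment domain protein ARC, of -1.02 ± 0.22. MLKL, the executioner of necroptosis, was at -1.12 ± 0.16, and BIRC5, the mitotic IAP survivin, at -0.97 ± 0.16. The adjusted p of these last 6 genes ran from 3.89e-05 for BNIP3 to 0.00419 for NOL3. BIRC3 and TRAF2 had no named probe and were not analysed here.

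**Figure D5:**
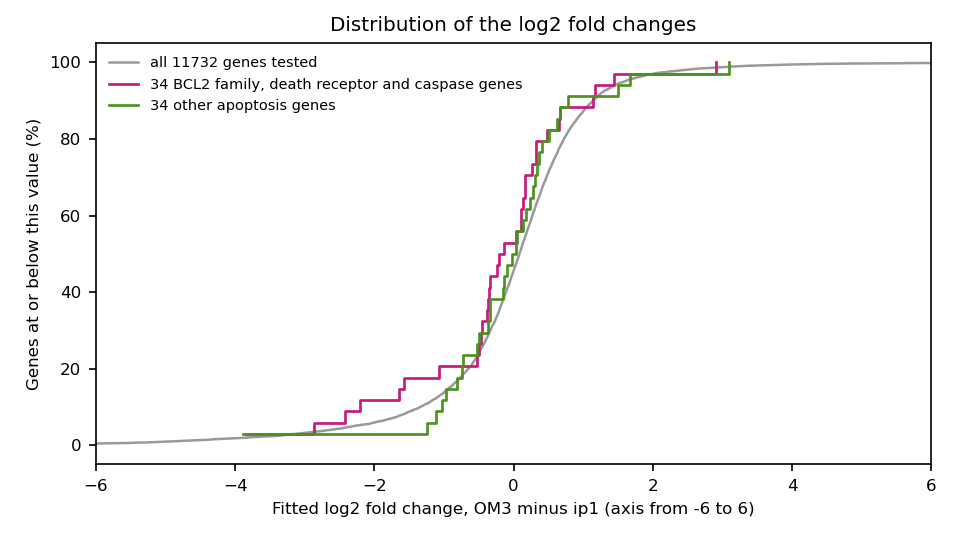
Cumulative share of genes (vertical axis, %) by log2 fold change, OM3 minus ip1, for all 11732 genes tested, the 34 BCL2 family, death receptor and caspase genes and 34 other apoptosis genes. The medians are 0.085, -0.17 and 0.00, and BIK and TNF form the lowest steps of the smaller sets.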

How the data were processed

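The authors deposited a table of linear probe intensity values (48799 probes per array), made with BeadStudio per the submitters' processing notes, and a table of log2 values. Its columns share a distribution to within 0.0004 in any quantile, so the log2 values were quantile normalized by the authors; this table served as an alternative. In the intensity table, 3 columns match no sample here and were not used. Column names show only the group, so array numbers follow column order.

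Intensities were corrected by normexp (limma, offset 16) using every signal of the array, quantile normalized and put on a log2 scale. A probe was above background past a one-sided normal probability of 0.05 over the mode of its array's log2 signals (kernel bandwidth 0.02, SD from the values below the mode), and 19011 probes above it on at least 3 of 6 arrays were kept. The kept probe of highest mean signal stood for a gene. Annotation gave 1 gene for 28094 probes, several for 13 and none for 20692; 39 named probes had a gene identifier outside the RefSeq table and kept their symbol. OM3 was compared with ip1 with limma 3.58.1 (R 4.3.3), as a two-sided moderated test from eBayes with Benjamini-Hochberg adjustment, which was checked on simulated data. With 3 arrays a group, precision is limited, and the median SE was 0.16. For a bound, each array of the dim group was given its lowest signal among probes above background, or the probe's own signal where that was higher, and the mean of these was compared with the bright group's mean. Values on every array are given for called genes of at least 2-fold, and up to 8 called genes of the further list are named. Alternatives were background step, scaling, filter, probe choice, prior variance, leaving out arrays and, chosen after seeing the data, a replicate block. The genes, lists and motifs were chosen with earlier results of these data known.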

Additional observations from a re-analysis of the deposited data

How the results depend on the processing

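Over the 9 processing alternatives, 6 to 8 genes of these families were called higher and 8 to 14 lower, and over the 6 that leave out an array 6 to 8 and 8 to 14. Over all genes the counts ran from 3077 to 3848 higher and 2136 to 3491 lower, and from 3239 to 3546 and 2725 to 2984 without an array. The filter settings changed what was tested, so their counts have another base. With probes above background on all 6 arrays, 8933 genes were tested, 27 of these families. Without a filter, 18849 genes were tested, 41 of these families. Cyclic loess moved the median of all genes by -0.106 and gave 3077 higher and 3491 lower, so differences of that size depend on the scaling. Single genes moved by more than that: CASP8 went from 0.16 to -0.021 with cyclic loess, and MCL1 from 0.11 to 0.28 with median centring. The 4 genes higher by at least 2-fold became 2 without background correction, 2 with cyclic loess and 2 in the authors' table, since APAF1 and CYCS fell under 2-fold. Without an array there were 4 each time, and 6 to 7 lower. The signs of genes near 0 turned: CASP8 to -0.021 with cyclic loess and -0.46 with the mean of its probes, CASP4 to -0.14 with cyclic loess, and BCL2L11 to -0.25 with the mean of its probes. BAX, called lower, turned to 0.077 with the mean of its probes. Leaving out an array put CASP4 between -0.10 and 0.19, with 4 of the 6 values under 0, and BCL2L11 between -0.069 (without OM3 array 3) and 0.47. The cause was not tested, except that the probe means of BAX, CASP8 and BCL2L11 add the other probes given above. Arrays were left out with genes and probes kept as they were. The sample titles number the groups 1 to 3 and 4 to 6 and share no replicate number, but the intensity columns are numbered 1 to 3 in both groups. Columns of the same number did not deviate together (correlations of -0.019, 0.077 and -0.052, against -0.073 to 0.095 for unlike numbers). The column numbers thus gave no sign of pairs, and other links between arrays were not tested. A replicate block on these numbers, chosen after seeing the data, gave 7 genes of these families higher and 10 lower, with 3543 and 2947 over all genes, and CASP2 was no longer called (adjusted p = 0.0606). Signal over background limits the values of FAS, BIK, TNFRSF10A, CASP10, BCL2, BCL2L11 and XIAP.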
